A study of Mus musculus with 8 samples.

Results

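Of the 32285 genes in the deposited matrices, 6 were followed, the CXC chemokine genes Cxcl1, Cxcl2, Cxcl3 and Cxcl5 and the colony-stimulating factor genes Csf3 and Csf2. They were chosen by name, for their known part in calling up neutrophils, with earlier results of these data known. Each was read as counts of unique molecular identifiers (UMIs) in single cells of mouse ankle and wrist synovium, the membrane that lines a joint. Every arthritic animal carried the human TNF transgene hTNFtg197 (strain B6-Tg(TNF)197Gkl) and had received Il23mc for 9 days, and animals were 8 to 10 weeks old. The groups were 3 IL-17-inhibited animals (arthritic, antibody against mouse IL-17A), 3 TNF-inhibited animals (arthritic, antibody against the human TNF of the transgene), 3 untreated arthritic animals, 5 FAP-sorted arthritic animals with no inhibitor, and 3 healthy animals, which were untreated wild types. Cells of the IL-17-inhibited, TNF-inhibited and untreated arthritic animals were sorted as viable and CD45-negative, with GR-1 also named in the gate, and each of these libraries also held 1 healthy animal. The FAP-sorted cells, kept for the fibroblast surface proteins FAP and Pdpn, formed a library of their own. Each library held 1 arthritic condition, so a treatment, or the sort, and its library cannot be told apart, and the 9 days of Il23mc act together with the transgene in every arthritic animal.

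Cxcl1, Cxcl2, Cxcl3 and Cxcl5 encode secreted chemokines that bind CXCR2, the main chemokine receptor of mouse neutrophils, and so draw these cells from blood into tissue. Csf3 encodes G-CSF, which drives the bone marrow to make and release neutrophils through the receptor CSF3R, and Csf2 encodes GM-CSF, which activates neutrophils, monocytes and macrophages. Stromal cells make them when NF-kB and C/EBP factors are switched on by TNF, IL-1 or IL-17A, and IL-17A is known to act in part by slowing the decay of their short-lived mRNAs. That decay is set in part by AU-rich elements, runs of ATTTA in the 3′ untranslated region to which proteins such as tristetraprolin (Zfp36) bind.

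The 4 chemokine genes lie in 1 cluster on chromosome 5 (mm10, GENCODE vM21), all on the plus strand. Cxcl5 (ENSMUSG00000029371) is at chr5:90759360-90761624, Cxcl3 (ENSMUSG00000029379) at chr5:90786103-90789600, Cxcl1 (ENSMUSG00000029380) at chr5:90891241-90893115 and Cxcl2 (ENSMUSG00000058427) at chr5:90903871-90905938. Csf3 (ENSMUSG00000038067) is at chr11:98701263-98703629 on the plus strand, and Csf2 (ENSMUSG00000018916) at chr11:54247271-54249667 on the minus strand.

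The promoters of Cxcl1, Cxcl2 and Cxcl3 are shown because each holds the same word of the NF-kB consensus, GGGAATTTCC, printed in capitals. They run from 250 bases before to 50 bases after the RefSeq start (GRCm38.p6) and lie at chr5:90890995-90891294, chr5:90903649-90903948 and chr5:90785851-90786150.
Cxcl1: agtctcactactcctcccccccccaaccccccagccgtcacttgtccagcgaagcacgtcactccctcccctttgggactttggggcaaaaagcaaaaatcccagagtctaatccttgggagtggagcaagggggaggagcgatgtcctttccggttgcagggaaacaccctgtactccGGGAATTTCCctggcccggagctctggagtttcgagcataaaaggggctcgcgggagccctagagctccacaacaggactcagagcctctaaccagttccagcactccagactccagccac
Cxcl2: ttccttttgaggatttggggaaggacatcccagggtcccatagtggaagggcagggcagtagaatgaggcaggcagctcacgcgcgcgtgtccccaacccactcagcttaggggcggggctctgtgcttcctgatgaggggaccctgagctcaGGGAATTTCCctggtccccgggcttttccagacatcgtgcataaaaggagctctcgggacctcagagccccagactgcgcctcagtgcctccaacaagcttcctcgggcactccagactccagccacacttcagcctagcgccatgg
Cxcl3: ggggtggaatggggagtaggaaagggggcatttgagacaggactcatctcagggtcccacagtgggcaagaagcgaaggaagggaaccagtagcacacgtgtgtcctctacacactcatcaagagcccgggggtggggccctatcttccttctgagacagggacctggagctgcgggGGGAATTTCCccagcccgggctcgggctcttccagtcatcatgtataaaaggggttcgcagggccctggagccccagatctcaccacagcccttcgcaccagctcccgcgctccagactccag
The first base of the motif was 71 bases before the start of Cxcl1, 97 before that of Cxcl2 and 73 before that of Cxcl3. These letters were read from the Cxcl1 promoter, so their presence there was fixed in advance. Searched on both strands, they occurred in 29 of 32851 promoters of this length, or 0.0883%, with Cxcl1, Cxcl2 and Cxcl3 among the 29. Any word that fits the NF-kB consensus, which these letters do, occurred in 1480 promoters (4.51%). In Cxcl1, Cxcl2 and Cxcl3 the only other consensus match was on the minus strand, overlapping the first and shifted by 1 base. TATAAAA occurred in 1801 promoters (5.48%), among these 3 genes only in Cxcl3, 30 bases before its start. The Csf2 window of the table (chr11:54249850-54250149, minus strand) lies wholly beyond the 5′ end of the GENCODE gene given above, so no motif is described for Csf2. Cxcl5 and Csf3 were not in the promoter table used. A match is a description of letters and not a measured binding site.

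All 6 genes carried ATTTA in their longest annotated 3′ untranslated region (GENCODE vM21, mm10). The densest 30 bases of each are shown with ATTTA in capitals, as the letters on which decay factors act, at chr5:90892607-90892636 (Cxcl1), chr5:90905328-90905357 (Cxcl2), chr5:90787636-90787665 (Cxcl3), chr5:90760647-90760676 (Cxcl5), chr11:98702988-98703017 (Csf3) and chr11:54247324-54247353 (Csf2, minus strand).
Cxcl1: tcctATTTATTTAtgtATTTATTTAttcca
Cxcl2: ATTTATTTAtctatgtATTTATTTATTTAt
Cxcl3: gcatcttATTTAatgtttATTTAatatcaa
Cxcl5: tctcacaagtgtATTTAgcaaaaatatttc
Csf3: gtttATTTAtctctATTTAatATTTAtgca
Csf2: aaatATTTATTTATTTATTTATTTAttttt
Counted over the whole region, with overlaps, Cxcl1 held 7 copies in 592 bases, Cxcl2 held 11 in 1494, Cxcl3 held 5 in 645, Cxcl5 held 5 in 1111, Csf3 held 6 in 669 and Csf2 held 9 in 317. The median of 21045 protein-coding genes was 1 copy in 960 bases. Per kilobase, Csf2 had 28.4 copies, more than 99.9% of genes, and Cxcl5 had 4.50, more than 90.3%. The other 4 members lay between, with 7.36 to 11.8 copies per kilobase. The longer TTATTTATT, found in 7.65% of genes, occurred 4 times each in Cxcl2 and Csf2, 2 times in Cxcl1 and once in Cxcl3. Cxcl5 and Csf3 had none.

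The deposited annotation placed 24227 of 47658 barcodes in an animal and in 1 of 7 classes. Of these cells, 21731 were fibroblasts of 5 classes (Pi16+, Cd200+, Il6+, Mmp3+ and lining), and the others were chondrocytes or osteoblasts. Counts were summed over the fibroblasts of each animal, 4508588 to 36786390 UMIs, and are given as CPM (counts-per-million units with TMM-scaled totals). In such sums, fewer cells that express a gene and less RNA per cell cannot be told apart. Any pair of libraries shared 7 to 12 cell barcodes. The healthy animals stand apart in their hashtags. The hashtag that the annotation gives had the highest raw count in 34.8%, 22.7% and 9.93% of their cells, against 96.2 to 100% in the arthritic animals. Every comparison of summed fibroblasts with healthy animals was therefore also computed with only the cells whose given hashtag was highest by raw count. The levels and tests within or between classes were not computed this way. The class mix differed too, since Pi16+ cells were 41.9 to 44.2% and Mmp3+ cells 2.14 to 5.81% of healthy fibroblasts, while Pi16+ cells were 0.933 to 1.40% and Mmp3+ cells 36.1 to 43.0% of untreated arthritic fibroblasts.

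Together the 6 genes gave 0.509 to 1.22% of the fibroblast UMIs of an animal, and Cxcl1 alone gave 56.8 to 83.9% of theirs. UMIs mark 3′ ends, so these shares were not divided by transcript length. The make-up differed most in Cxcl5, which held 16.3 to 19.8% of the 6-gene UMIs in untreated arthritic animals and 2.60 to 5.34% in healthy animals. It held 21.6 to 34.6% in FAP-sorted animals. Csf2 was the scarcest, with at most 0.175% of them in any animal.

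**Figure D1:**
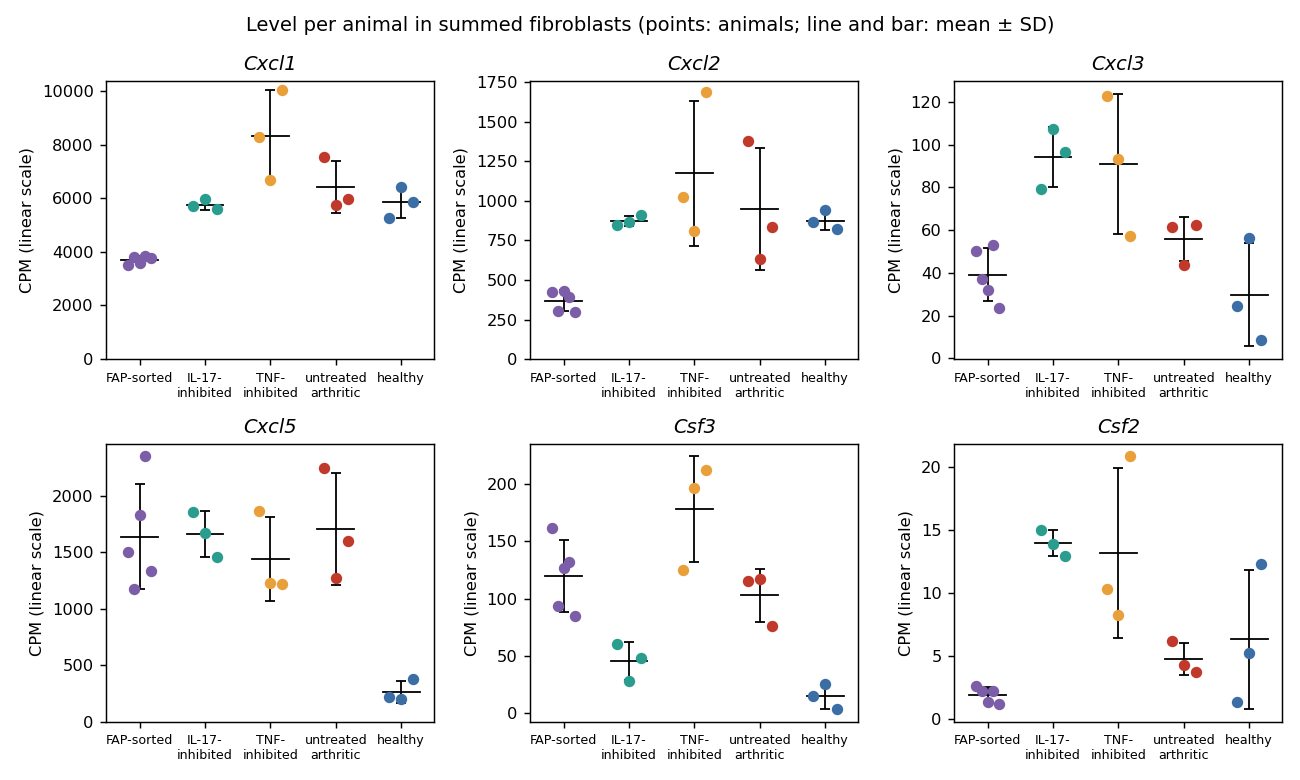
Level of each of the 6 genes in the summed fibroblasts of every animal, in CPM on a linear axis, with FAP-sorted, IL-17-inhibited, TNF-inhibited, untreated arthritic and healthy animals from left to right. Points are animals and bars show the mean with its SD; the 3 healthy animals lie below every arthritic animal for Cxcl5 and Csf3.

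The chemokine genes had different homes among the 7 classes. Over the 17 animals, Cxcl1 averaged 8496 ± 2454 CPM (SD, n = 17) in Il6+ fibroblasts, the highest level of any class. Mmp3+ fibroblasts followed at 4946 ± 1631 and lining fibroblasts at 4807 ± 1762, and osteoblasts were lowest at 2118 ± 810. Il6+ fibroblasts were above Mmp3+ fibroblasts in 17 of 17 animals. Among neighbours in this order, only the highest and the lowest class were set off by more than the larger SD, and Mmp3+, lining, Pi16+, Cd200+ and chondrocyte levels ran into each other.

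Cxcl2 kept the Il6+ fibroblasts first, at 1263 ± 583 CPM against 675 ± 385 in Mmp3+ fibroblasts, again in 17 of 17 animals, and Cd200+ fibroblasts were lowest at 176 CPM. Cxcl3 was instead highest in lining fibroblasts, at 235 ± 195 CPM, with Il6+ at 55.7 ± 35.1 and Mmp3+ at 48.1 ± 33.6. The lining level was above the Il6+ level in 14 of 17 animals, although the gap was smaller than the SD among animals. Cxcl5 was highest in Mmp3+ fibroblasts, at 1659 ± 762 CPM, and stood at 1067 ± 414 in Il6+ fibroblasts, below Mmp3+ in 15 of 17 animals. Its lowest mean was 238 CPM in Pi16+ fibroblasts (n = 14 animals with at least 10 such cells). Over the 17 animals, which mix healthy and arthritic ones, no 2 neighbours in the order of Cxcl5 or Cxcl3 differed by more than the larger SD. Over the 14 arthritic animals the leading classes stood apart by more, with Cxcl5 at 1938 ± 485 CPM in Mmp3+ against 1153 ± 396 in Il6+ fibroblasts (14 of 14 animals) and Cxcl3 at 274 ± 190 CPM in lining against 57.1 ± 34.9 in Il6+ fibroblasts (13 of 14). In the 3 healthy animals the Cxcl5 order was turned, at 663 ± 242 CPM in Il6+ and 359 ± 184 in Mmp3+ fibroblasts, the first above the second in 2 of 3.

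The colony-stimulating factor gene Csf3 had its highest levels in Il6+ and Mmp3+ fibroblasts, while Csf2 was spread over 3 classes. Csf3 averaged 166 ± 142 CPM in Il6+ and 84.5 ± 56.7 in Mmp3+ fibroblasts, the first above the second in 15 of 17 animals, and 13.4 to 28.9 CPM in the other 5 classes. Csf2 averaged 12.6 ± 25.9 CPM in Mmp3+ and 10.9 ± 13.2 in Il6+ fibroblasts (n = 17), and 9.54 ± 16.2 in Pi16+ fibroblasts (n = 14). Mmp3+ was above Il6+ in 6 of 17 animals only, and without the sums of fewer than 30 cells the Il6+ mean came first. Thinning every cell to 3000 UMIs, which leaves out 535 shallower cells, kept the leading class of all 6 genes.

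**Figure D2:**
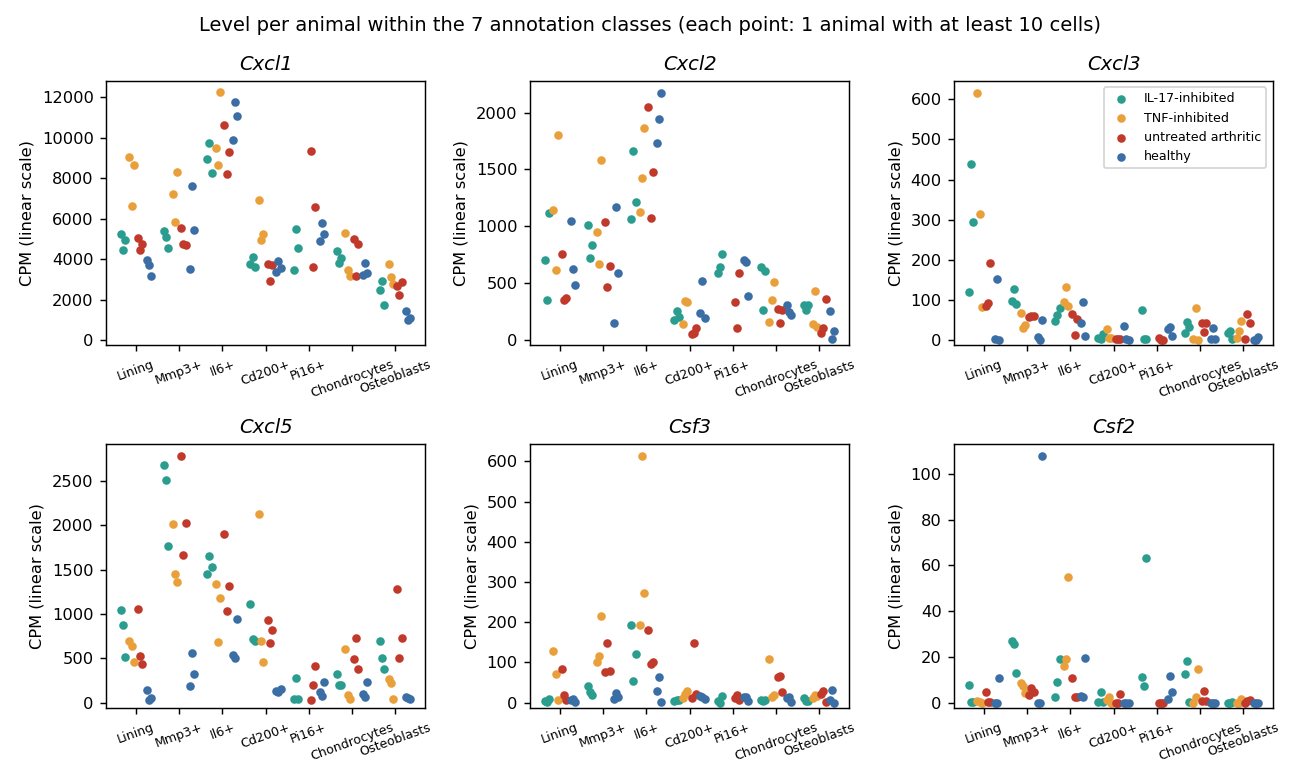
Level of the 6 genes in each of the 7 classes, in CPM, for classes with at least 10 cells in an animal. Points are animals of the IL-17-inhibited, TNF-inhibited, untreated arthritic and healthy groups; Cxcl1 and Cxcl2 are highest in Il6+, Cxcl3 in lining and Cxcl5 in Mmp3+ fibroblasts.

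To see which of these signals the arthritis had raised, untreated arthritic animals were set against healthy ones. Cxcl5 and Csf3 were several times higher in the arthritic fibroblasts, and Cxcl1, the most abundant member, and Cxcl2 stood at nearly the same level in both. Cxcl5 had 2243, 1277 and 1600 CPM in the untreated arthritic animals, against 218, 199 and 379 CPM in the healthy animals. The groups did not overlap, and the difference was 2.69 ± 0.27 on the log2 scale (log2 fold change with its SE; 6.47-fold; edgeR adjusted p = 1.1e-05). Csf3 had 115, 117 and 75.7 CPM in the untreated arthritic animals, against 15.0, 25.3 and 3.51 CPM in the healthy animals. These groups did not overlap either, and Csf3 differed by 2.78 ± 0.44 on the log2 scale (6.89-fold; adjusted p = 0.0004).

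Cxcl1 had 7552, 5756 and 5966 CPM in the untreated arthritic animals, against 5254, 6419 and 5871 CPM in the healthy animals. Cxcl2 had 1377, 633 and 832 CPM in the untreated arthritic animals, against 866, 943 and 819 CPM in the healthy animals. The groups overlapped for both chemokines, with log2 fold changes of 0.14 ± 0.15 (adjusted p = 0.51) and 0.12 ± 0.26 (0.78).

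Cxcl3 had 61.3, 43.8 and 62.6 CPM in the untreated arthritic animals, against 24.6, 56.2 and 8.57 CPM in the healthy animals, at 0.90 ± 0.43 on the log2 scale (adjusted p = 0.14). Csf2 had 6.18, 4.29 and 3.77 CPM in the untreated arthritic animals, against 1.40, 5.28 and 12.3 CPM in the healthy animals, which rest on 12, 33 and 63 UMIs (log2 fold change -0.33 ± 0.53). Neither passed the test, and both overlapped between the groups. Healthy animal 3 was the highest of the 6 animals for Csf2 and the lowest for Csf3 and Cxcl3.

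The members that rose were thus 2 of 6, and none fell. Over all 14348 genes tested, 14.4% rose, 14.3% fell and 28.7% passed in either direction. The median log2 fold change of the 6 members was 0.52, against 0.01 over all genes tested. With only the cells whose hashtag was highest by raw count, Cxcl5 and Csf3 still rose, and Cxcl1 (log2 fold change 0.66, adjusted p = 0.010) and Cxcl3 (1.35, adjusted p = 0.041) passed as well. Without healthy animal 2, Cxcl3 passed at 1.70 (adjusted p = 0.0084).

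The arthritis response of Cxcl5 was found in 6 of the 7 classes. In Mmp3+ fibroblasts it had 2782, 1664 and 2028 CPM in untreated arthritic animals, against 192, 556 and 328 CPM in healthy animals, at 3.01 ± 0.32 on the log2 scale (adjusted p = 7.7e-05). The 3 healthy sums held 16, 17 and 24 cells. In lining fibroblasts, the cells at the joint surface, it had 1059, 521 and 439 CPM in untreated arthritic animals, against 139, 34.5 and 47.9 CPM in healthy animals, at 3.33 ± 0.43 (adjusted p = 7.3e-05). Neither class had overlapping groups.

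In Il6+ fibroblasts, Cxcl5 had 1896, 1031 and 1310 CPM in untreated arthritic animals, against 538, 509 and 941 CPM in healthy animals, at 1.17 ± 0.27 (adjusted p = 0.018). It also rose in Cd200+ fibroblasts (2.67 ± 0.44), chondrocytes (2.10 ± 0.66) and osteoblasts (4.03 ± 0.59). In Pi16+ fibroblasts the log2 fold change was 0.68 and did not pass. The call in Il6+ fibroblasts was lost in 3 and that in chondrocytes in 5 of the 6 fits that leave out 1 animal, and the value in Pi16+ fibroblasts took either sign (-0.23 to 1.19).

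The difference between classes was tested by itself, as an interaction with the animal kept as a block. The rise of Cxcl5 in Il6+ minus that in Mmp3+ fibroblasts was -1.89 ± 0.31 on the log2 scale (adjusted p = 0.0029), and minus that in lining fibroblasts -2.11 ± 0.45 (adjusted p = 0.0089). Cxcl1 also differed between Il6+ and lining fibroblasts (-0.78 ± 0.18, adjusted p = 0.016). Its level in lining fibroblasts was 5050, 4456 and 4733 CPM in untreated arthritic animals, against 3956, 3697 and 3164 CPM in healthy animals (0.63 ± 0.17, adjusted p = 0.020). Over all genes, 3.27% passed the first of these class differences and 4.36% the second. In the first, 72 genes passed higher and 337 lower, with a median of -0.16 over all genes. In the second, 220 passed higher and 272 lower, with a median of -0.03. With at least 30 cells a sum, the Il6+ against lining differences no longer passed (adjusted p = 0.081 for Cxcl1 and 0.051 for Cxcl5), and the Mmp3+ difference could not be fitted.

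Other class-level changes against healthy were few. Csf3 rose in Mmp3+ fibroblasts (3.03 ± 0.79, adjusted p = 0.032; healthy sums of 1, 5 and 3 UMIs) and in chondrocytes (2.53 ± 0.75, adjusted p = 0.037), and Cxcl1 rose in osteoblasts (1.27 ± 0.21, adjusted p = 0.00084). Cxcl2 fell in Cd200+ fibroblasts, with 51.3, 64.2 and 109 CPM in untreated arthritic animals, against 237, 515 and 193 CPM in healthy animals (-1.91 ± 0.39, adjusted p = 0.0086), a call lost in 2 of the 6 fits without 1 animal. In all, 11 of 38 tests of a member in a class passed. The share of all genes that passed was 13.2% in lining, 6.84% in Mmp3+, 6.91% in Il6+, 4.27% in Cd200+ and 3.43% in Pi16+ fibroblasts, 12.9% in chondrocytes and 8.93% in osteoblasts. The Csf3 calls were lost in 3 and 5 of the 6 fits without 1 animal, and the call of Cxcl1 in lining fibroblasts in 3.

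**Figure D3:**
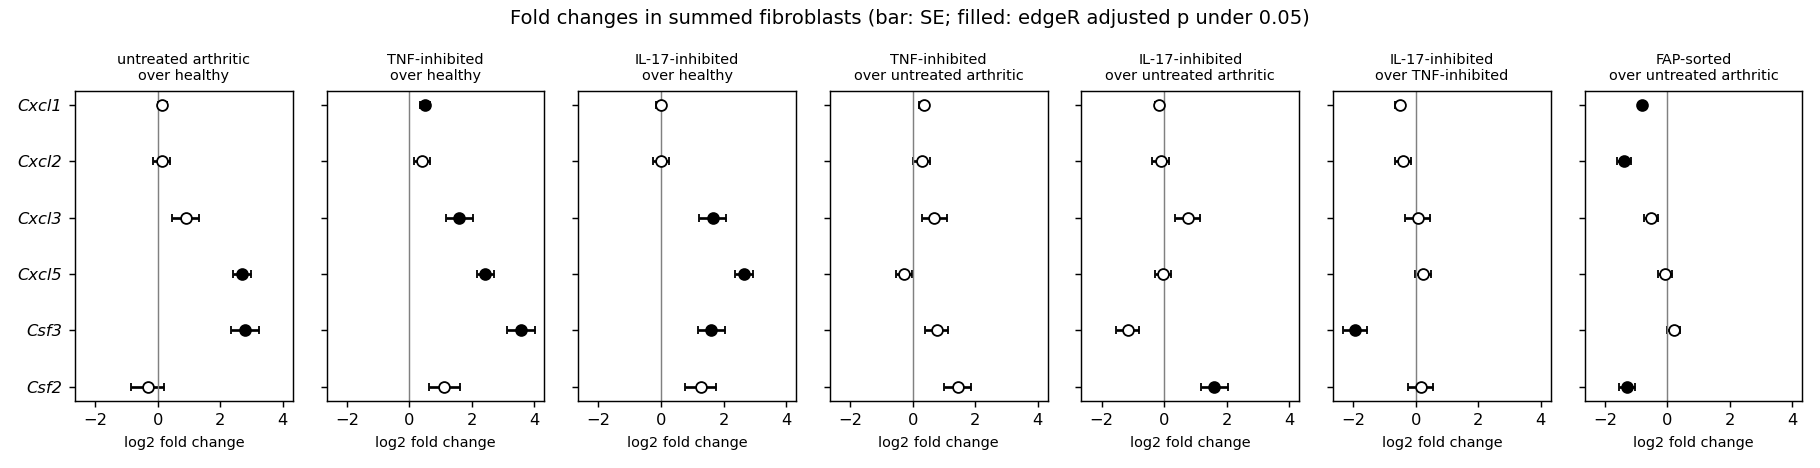
Log2 fold change with its SE for the 6 genes in each of the 7 comparisons of summed fibroblasts; filled points passed at an edgeR adjusted p under 0.05. Cxcl5 and Csf3 lie near 2.7 in untreated arthritic over healthy animals, and Csf3 lies at -1.95 in IL-17-inhibited over TNF-inhibited animals.

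The next comparison asked what blocking the human TNF did to these genes in arthritic joints. No member passed in TNF-inhibited against untreated arthritic fibroblasts by edgeR, where 5.55% of all genes did, 2.53% higher and 3.02% lower. At an unadjusted p under 0.05, 2 members did (Cxcl1 and Csf2), and DESeq2 also called 0. Cxcl1 had 8293, 6683 and 10053 CPM in the TNF-inhibited animals, against 7552, 5756 and 5966 CPM in the untreated arthritic animals (log2 fold change 0.36 ± 0.15, adjusted p = 0.16). Cxcl5 had 1869, 1228 and 1222 CPM in the TNF-inhibited animals, against 2243, 1277 and 1600 CPM in the untreated arthritic animals (-0.26 ± 0.26, adjusted p = 0.58). The levels of both chemokines overlapped between the groups.

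Csf3 had 125, 196 and 212 CPM in the TNF-inhibited animals, against 115, 117 and 75.7 CPM in the untreated arthritic animals (0.77 ± 0.37, adjusted p = 0.23). Csf2 had 10.3, 8.28 and 20.8 CPM in the TNF-inhibited animals, against 6.18, 4.29 and 3.77 CPM in the untreated arthritic animals (1.44 ± 0.44, adjusted p = 0.068). Both had groups that did not overlap, with TNF-inhibited animals higher, but did not pass the test. How many of all genes had groups without overlap was not counted, here or in the other comparisons. Lack of overlap is therefore a description and no test. Cxcl2 had 1023, 810 and 1689 CPM in the TNF-inhibited animals, against 1377, 633 and 832 CPM in the untreated arthritic animals. Cxcl3 had 123, 93.4 and 57.3 CPM in the TNF-inhibited animals, against 61.3, 43.8 and 62.6 CPM in the untreated arthritic animals. Il6+ cells were 23.8 to 38.0% of TNF-inhibited and 42.5 to 50.6% of untreated arthritic fibroblasts, and the part of this mix was not tested.

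Within classes, 4 of 34 tests passed under TNF inhibition. Cxcl1 rose in lining fibroblasts, with 9071, 6604 and 8634 CPM in TNF-inhibited animals, against 5050, 4456 and 4733 CPM in untreated arthritic animals (0.93 ± 0.17, adjusted p = 0.016). It also rose in Cd200+ fibroblasts (0.85 ± 0.15, adjusted p = 0.015), as did Cxcl2 (1.94 ± 0.38, adjusted p = 0.022). Cxcl5 fell in osteoblasts, to 175 ± 120 CPM in TNF-inhibited animals, against 838 ± 397 CPM in untreated arthritic animals (SD, n = 3 each; -2.17 ± 0.46, adjusted p = 0.030). Of the 6 fits without 1 animal, 3 lost the call of Cxcl1 in lining fibroblasts, 1 that of Cxcl1 and 3 that of Cxcl2 in Cd200+ fibroblasts, and 2 that of Cxcl5 in osteoblasts. Of all genes, 1.33% passed in lining, 2.33% in Mmp3+, 0.254% in Il6+ and 1.07% in Cd200+ fibroblasts, 0% in chondrocytes and 1.26% in osteoblasts.

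Under IL-17A blockade the colony-stimulating factor gene Csf2 passed the test against untreated arthritic fibroblasts, and the abundant chemokines did not. Csf2 rose, with 15.0, 13.9 and 13.0 CPM in the IL-17-inhibited animals, against 6.18, 4.29 and 3.77 CPM in the untreated arthritic animals, at 1.60 ± 0.43 on the log2 scale (3.03-fold; adjusted p = 0.037). The groups did not overlap. The call was lost in DESeq2 (adjusted p = 0.088) and in all 6 fits without 1 animal (0.070 to 0.14), and the healthy animal of the IL-17-inhibited library, at 12.3 CPM, was also above the other healthy animals. Csf3 had 60.6, 28.1 and 48.3 CPM in the IL-17-inhibited animals, against 115, 117 and 75.7 CPM in the untreated arthritic animals, without overlap, and its log2 fold change of -1.17 ± 0.38 missed the threshold (adjusted p = 0.075). With the library as a term the direction turned for both, to -1.54 for Csf2 and 0.92 for Csf3, and neither passed. The class mix moved as well. Il6+ cells were 27.9 to 42.0% of IL-17-inhibited and 42.5 to 50.6% of untreated arthritic fibroblasts. Cd200+ cells were 13.2 to 15.9% of IL-17-inhibited and 4.60 to 7.59% of untreated arthritic fibroblasts. The part of this mix in the summed changes under IL-17 inhibition was not tested.

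The 4 chemokine genes did not pass. Cxcl1 had 5714, 5978 and 5596 CPM in the IL-17-inhibited animals, against 7552, 5756 and 5966 CPM in the untreated arthritic animals (-0.16 ± 0.15). Cxcl5 had 1856, 1671 and 1456 CPM in the IL-17-inhibited animals, against 2243, 1277 and 1600 CPM in the untreated arthritic animals (-0.04 ± 0.26). Both overlapped between the groups. Cxcl2 had 848, 866 and 909 CPM in the IL-17-inhibited animals, against 1377, 633 and 832 CPM in the untreated arthritic animals (-0.12 ± 0.26). Cxcl3 had 79.2, 107 and 96.7 CPM in the IL-17-inhibited animals, against 61.3, 43.8 and 62.6 CPM in the untreated arthritic animals (0.76 ± 0.40, adjusted p = 0.26), with no overlap. Over all genes 8.45% passed, 3.8% higher and 4.65% lower, beside 1 of the 6 members.

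Within classes the fall of Csf3 did pass. In Mmp3+ fibroblasts it had 41.7, 27.7 and 19.95 CPM in the IL-17-inhibited animals, against 76.0, 149 and 78.9 CPM in the untreated arthritic animals, at -1.89 ± 0.33 (adjusted p = 0.0051), and every fit without 1 animal kept this call. In Cd200+ fibroblasts it had 3.92, 7.61 and 7.15 CPM in the IL-17-inhibited animals, against 10.8, 148 and 22.2 CPM in the untreated arthritic animals (-3.34 ± 0.61, adjusted p = 0.012), a call lost in 3 of the 6 fits without 1 animal. In Il6+ fibroblasts, the class with its highest level, Csf3 had 194, 52.8 and 122 CPM in the IL-17-inhibited animals, against 181, 96.5 and 102 CPM in the untreated arthritic animals, which overlap. By summed UMIs, Mmp3+ fibroblasts gave 1200 and Il6+ fibroblasts 2781 in the IL-17-inhibited animals, and Mmp3+ 4508 and Il6+ 2938 in the untreated arthritic animals. Whether the fall differed between classes was not tested.

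Csf2 rose in Mmp3+ fibroblasts, with 26.8, 25.8 and 13.2 CPM in IL-17-inhibited animals, against 3.27, 6.60 and 4.89 CPM in untreated arthritic animals (1.96 ± 0.42, adjusted p = 0.014). That call was lost in DESeq2 (adjusted p = 0.21) and in 3 of the 6 fits without 1 animal. These were 3 of 38 class tests that passed, while the share of all genes that passed was 0.495% in lining, 6.41% in Mmp3+, 2.24% in Il6+, 1.48% in Cd200+ and 0.307% in Pi16+ fibroblasts, 0.234% in chondrocytes and 0.594% in osteoblasts.

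The inhibitors were also set against each other. Csf3 was lower under IL-17 inhibition, with 60.6, 28.1 and 48.3 CPM in the IL-17-inhibited animals, against 125, 196 and 212 CPM in the TNF-inhibited animals. The groups did not overlap, and the log2 fold change was -1.95 ± 0.39 (0.26-fold; adjusted p = 0.0094), kept in every fit without 1 animal (0.0091 to 0.046). With the library as a term, the value was 0.90. That term sets each treated group against the 1 healthy animal beside it. This animal had 3.51 CPM (18 UMIs) in the IL-17-inhibited and 25.3 CPM (158 UMIs) in the TNF-inhibited library. Cxcl1 had 5714, 5978 and 5596 CPM in the IL-17-inhibited animals, against 8293, 6683 and 10053 CPM in the TNF-inhibited animals, without overlap, and missed the threshold (-0.51 ± 0.15, adjusted p = 0.051). Of the 6 members 1 fell, while of all genes 3.05% fell, 4.54% rose and 7.6% passed in either direction.

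The class sums gave 6 of 34 tests past the threshold between the inhibitors. Csf3 fell in Mmp3+ fibroblasts (29.8 ± 11.0 CPM in IL-17-inhibited animals, against 145 ± 61.2 CPM in TNF-inhibited animals; -2.44 ± 0.33, adjusted p = 0.00075). It also fell in lining fibroblasts, with 5.13, 2.81 and 10.1 CPM in IL-17-inhibited animals, against 129, 71.9 and 7.49 CPM in TNF-inhibited animals (-3.78 ± 0.76, adjusted p = 0.0071), where TNF-inhibited animal 3 lay among the IL-17-inhibited ones. Cxcl1 fell in lining fibroblasts, with 5249, 4446 and 4946 CPM in IL-17-inhibited animals, against 9071, 6604 and 8634 CPM in TNF-inhibited animals (-0.92 ± 0.17, adjusted p = 0.0041). It fell in Cd200+ fibroblasts as well (-0.66 ± 0.15, adjusted p = 0.029). Csf2 (1.48 ± 0.40, adjusted p = 0.038) and Cxcl3 (1.03 ± 0.26, adjusted p = 0.028) rose in Mmp3+ fibroblasts. Without 1 animal, the call of Cxcl1 in Cd200+ fibroblasts was lost in 4, that of Csf2 in 5 and that of Cxcl3 in 4 of the 6 fits, and those of Csf3 and of Cxcl1 in lining fibroblasts in none. DESeq2 did not call Csf2 (adjusted p = 0.41). Of all genes, 6.65% passed in lining, 7.18% in Mmp3+, 0.787% in Il6+ and 1.74% in Cd200+ fibroblasts, 0.0781% in chondrocytes and 1.77% in osteoblasts.

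**Figure D4:**
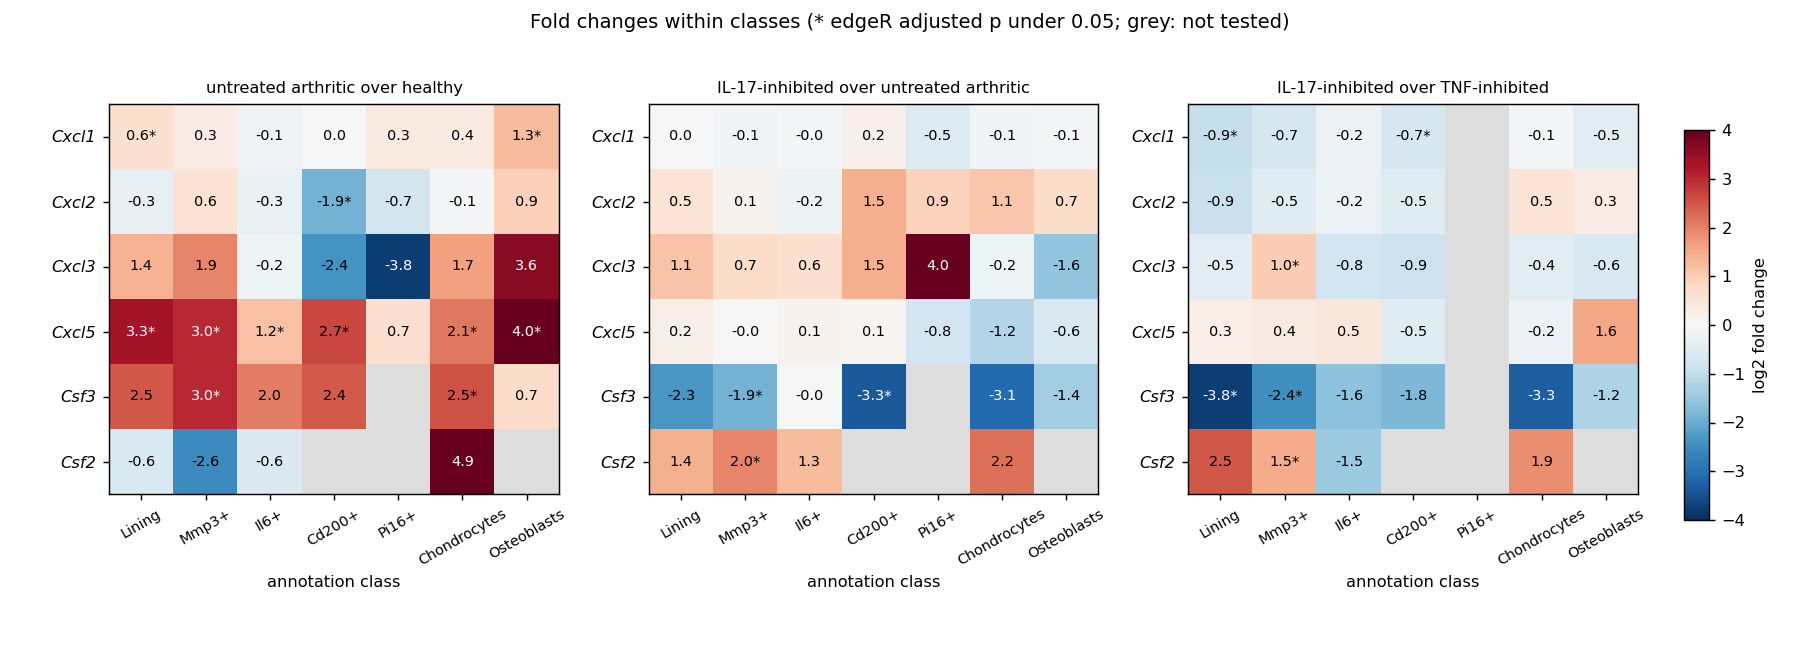
Log2 fold change of the 6 genes in each of the 7 classes, for untreated arthritic over healthy, IL-17-inhibited over untreated arthritic and IL-17-inhibited over TNF-inhibited animals. Red is higher and blue lower in the first-named group, a star marks an edgeR adjusted p under 0.05 and grey marks pairs that were not tested; Cxcl5 has 6 stars against healthy, and Csf3 has -1.89 in Mmp3+ fibroblasts under IL-17 inhibition.

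Measured against the healthy animals, the treated animals still had more of several members. In TNF-inhibited animals Cxcl1 (log2 fold change 0.50, adjusted p = 0.017), Cxcl3 (1.60, 0.010), Cxcl5 (2.43, 1.7e-05) and Csf3 (3.56, 4.5e-05) were higher than in healthy animals, 4 of 6 where 19.6% of all genes rose, 19.3% fell and 38.9% passed. In IL-17-inhibited animals Cxcl3 (1.66, 0.0096), Cxcl5 (2.65, 1.4e-05) and Csf3 (1.61, 0.012) were higher than in healthy animals, 3 of 6 where 17.9% of all genes rose, 17.7% fell and 35.6% passed. With a library term, Cxcl1 (0.36, adjusted p = 0.28) and Cxcl3 (0.69, 0.23) no longer passed under TNF inhibition, and in cells of low stress score Cxcl3 (0.97, 0.12) and Csf3 (1.59, 0.081) no longer passed under IL-17 inhibition. The call of Cxcl1 under TNF inhibition was also lost in 2 of the 6 fits without 1 animal and in cells of low stress score (adjusted p = 0.29). The 2 comparisons share their healthy animals. With only the cells whose hashtag was highest by raw count, Csf3 in IL-17-inhibited animals no longer passed (0.88, adjusted p = 0.24), and Cxcl1 in these animals did (0.50, adjusted p = 0.039).

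Set against the healthy animal of its own library, which shares the droplets and the sequencing, the mean Csf3 level was 45.7 CPM in the IL-17-inhibited animals and 3.51 CPM in their healthy animal, 178 CPM in the TNF-inhibited animals and 25.3 CPM in theirs, and 103 CPM in the untreated arthritic animals and 15.0 CPM in theirs. The ratios were 13.0, 7.03 and 6.84. The corresponding ratios were 4.38, 7.23 and 7.82 for Cxcl5, 11.0, 1.62 and 2.27 for Cxcl3, 1.14, 2.49 and 3.40 for Csf2, 1.07, 1.24 and 1.09 for Cxcl2 and 0.982, 1.30 and 1.22 for Cxcl1. In the same order of libraries, the healthy animals had 18, 158 and 129 UMIs of Csf3 and 44, 351 and 211 UMIs of Cxcl3. Each of these ratios rests on 1 healthy animal, so they carry no test.

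In 12 of 34 class tests the TNF-inhibited animals, and in 8 of 38 the IL-17-inhibited animals, differed from healthy ones, always higher. Cxcl5 rose in 3 of the 6 classes tested under TNF inhibition and in 5 of 7 under IL-17 inhibition. Csf3 rose in 4 of 6 classes under TNF inhibition, among them Il6+ fibroblasts (3.65 ± 0.67, adjusted p = 0.0028), and in none of 6 under IL-17 inhibition by edgeR. The Csf3 call under TNF inhibition was lost in 4 of the 6 fits without 1 animal in chondrocytes, in 2 in Mmp3+ and in 1 in lining fibroblasts, and in none in Il6+ fibroblasts. The call of Cxcl1 in Mmp3+ fibroblasts was lost in 4 and that of Cxcl3 in lining fibroblasts in 3. Under IL-17 inhibition, the call of Cxcl1 in lining fibroblasts was lost in 4 and that of Cxcl3 in Mmp3+ fibroblasts in 2. The remaining class calls against healthy animals under either inhibitor were kept. Under TNF inhibition, the share of all genes that passed against healthy animals was 20.9% in lining, 6.09% in Mmp3+, 11.4% in Il6+ and 8.01% in Cd200+ fibroblasts, 8.65% in chondrocytes and 6.45% in osteoblasts. Under IL-17 inhibition it was 9.91% in lining, 5.22% in Mmp3+, 9.9% in Il6+, 6.04% in Cd200+ and 3.33% in Pi16+ fibroblasts, 11.3% in chondrocytes and 8.04% in osteoblasts.

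FAP-sorted fibroblasts, which came from a separate library, had less of Cxcl1, Cxcl2 and Csf2 than untreated arthritic fibroblasts. Cxcl1 had 3498, 3807, 3577, 3859 and 3773 CPM in the FAP-sorted animals, against 7552, 5756 and 5966 CPM in the untreated arthritic animals (-0.82 ± 0.09, adjusted p = 0.00023). Cxcl2 had 424, 304, 428, 393 and 296 CPM in the FAP-sorted animals, against 1377, 633 and 832 CPM in the untreated arthritic animals (-1.38 ± 0.22, adjusted p = 0.00099). Csf2 had 2.62, 2.25, 1.34, 2.22 and 1.23 CPM in the FAP-sorted animals, against 6.18, 4.29 and 3.77 CPM in the untreated arthritic animals (-1.29 ± 0.26, adjusted p = 0.0029). In all 3 the groups did not overlap.

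Cxcl5 had 1498, 1171, 1834, 2352 and 1339 CPM in the FAP-sorted animals, against 2243, 1277 and 1600 CPM in the untreated arthritic animals (-0.08 ± 0.23). Csf3 had 162, 93.5, 126, 132 and 84.5 CPM in the FAP-sorted animals, against 115, 117 and 75.7 CPM in the untreated arthritic animals (0.20 ± 0.21). Neither passed, and both overlapped. Cxcl3 had 50.1, 37.0, 32.2, 52.9 and 23.5 CPM in the FAP-sorted animals, against 61.3, 43.8 and 62.6 CPM in the untreated arthritic animals (-0.53 ± 0.23, adjusted p = 0.087).

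This comparison called 42.9% of 13418 genes, 21.3% higher and 21.5% lower, beside 3 of the 6 members, all lower. The mix and the handling of the cells moved with it. Il6+ fibroblasts were 11.95 to 24.5% in FAP-sorted animals and 42.5 to 50.6% in untreated arthritic animals, and the median of the deposited stress score was 0.112 to 0.366 in FAP-sorted animals and 0.639 to 0.802 in untreated arthritic animals. Their part in the result was not tested. Within Il6+ fibroblasts, Cxcl1 averaged 5224 ± 534 CPM in FAP-sorted animals (SD, n = 5) and 9395 ± 1208 CPM in untreated arthritic animals (n = 3). Within Mmp3+ fibroblasts it averaged 3212 ± 184 CPM in FAP-sorted animals and 5013 ± 476 CPM in untreated arthritic animals. Cxcl2 averaged 536 ± 22.4 CPM in FAP-sorted and 1532 ± 488 CPM in untreated arthritic animals within Il6+ fibroblasts, but 73.3 ± 75.3 CPM in FAP-sorted and 74.9 ± 30.4 CPM in untreated arthritic animals within Cd200+ fibroblasts. Csf2 averaged 1.12 ± 0.17 CPM in FAP-sorted and 4.92 ± 1.66 CPM in untreated arthritic animals within Mmp3+ fibroblasts, 4.85 ± 4.52 CPM in FAP-sorted and 5.36 ± 4.66 CPM in untreated arthritic animals within Il6+ fibroblasts, and 6.71 ± 4.60 CPM in FAP-sorted animals within Pi16+ fibroblasts, where the untreated arthritic animals had no UMI in 54 cells. In cells at or below the median stress score, the log2 fold change was -0.96 for Cxcl1 and -1.78 for Cxcl2, and Cxcl3 passed too, at -1.13 (adjusted p = 0.00093).

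The 6 genes also differed in how evenly the fibroblasts carried them. Cxcl1 had a UMI in a median of 99.6% of the fibroblasts of an animal, Cxcl5 in 74.6%, Cxcl2 in 48.5%, Csf3 in 14.8%, Cxcl3 in 9.87% and Csf2 in 1.98%. Free RNA, or droplets with several cells, can add to such shares. Of the 168 unannotated barcodes with Schwann cell markers, 90.5% had a Cxcl1 UMI and 47.6% a Cxcl5 UMI. A Cxcl2 UMI was in 26.2%, a Csf3 UMI in 6.55%, a Cxcl3 UMI in 2.98% and a Csf2 UMI in none. Their median depth was 2818.5 to 3575.5 UMIs by library, against 9203 to 20813 by animal in fibroblasts. Pooled, they held 2931 CPM of Cxcl1 and 868 CPM of Cxcl5. By library, Cxcl5 was at 429 CPM in the untreated, 137 CPM in the TNF-inhibited and 1410 CPM in the IL-17-inhibited library. Class means of Cxcl5 outside Mmp3+ and Il6+ fibroblasts were 238 to 732 CPM. The part of free RNA, or of droplets with several cells, in these means was not tested. The 1% of fibroblasts with the most UMIs of a gene held a median of 5.33% of its UMIs for Cxcl1, 14.2% for Cxcl5, 21.2% for Cxcl2, 43.1% for Csf3, 63.8% for Cxcl3 and 87.8% for Csf2. Rare genes are concentrated by their low counts alone, so these values rank counts as much as cells.

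For Csf3 this share did not overlap between the arthritic groups of the unsorted libraries. How far the share depends on the Csf3 count was not tested. The top 1% of fibroblasts held 66.0, 75.5 and 66.9% of the Csf3 UMIs in IL-17-inhibited animals, 38.5, 36.4 and 38.5% in TNF-inhibited animals and 51.6, 51.6 and 54.3% in untreated arthritic animals. In the 5 FAP-sorted animals it was 28.3 to 48.7%, which spans the TNF-inhibited values. In the healthy animals it was 37.2, 60.8 and 27.8%, on 129, 158 and 18 Csf3 UMIs. Cells with a Csf3 UMI were 10.3, 8.27 and 10.6% of fibroblasts in IL-17-inhibited animals, 22.1, 28.2 and 24.6% in TNF-inhibited animals and 14.8, 16.8 and 15.8% in untreated arthritic animals. The single richest cell had 129, 116 and 133 Csf3 UMIs in the IL-17-inhibited animals, 134, 256 and 224 in the TNF-inhibited animals and 155, 288 and 137 in the untreated arthritic animals. In Mmp3+ fibroblasts thinned to 3000 UMIs a cell, which left out 23, 11 and 25 shallower cells of the IL-17-inhibited, TNF-inhibited and untreated arthritic animals, cells with a Csf3 UMI were 2.74% in IL-17-inhibited, 10.5% in TNF-inhibited and 6.67% in untreated arthritic animals. Without thinning these shares were 10.2% in IL-17-inhibited, 27.8% in TNF-inhibited and 19.4% in untreated arthritic animals.

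**Figure D5:**
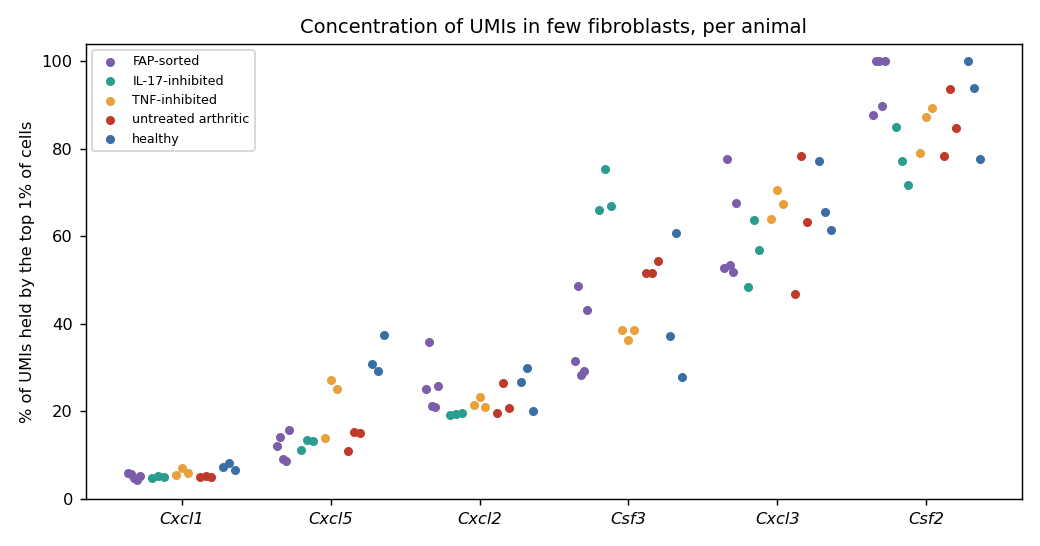
Percent of the UMIs of each gene held by the 1% of fibroblasts with the most of them, per animal and group. The share rises from Cxcl1, with a median of 5.33%, to Csf2, with a median of 87.8%, and for Csf3 the IL-17-inhibited animals lie above the TNF-inhibited and untreated arthritic ones.

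Other cells of the joint held these genes as well. Among the barcodes outside the annotation, 1478 had endothelial markers, and Csf3 reached 1965 CPM in them, with a UMI in 58.6% of barcodes. By library, the endothelial level was 1575 CPM in the IL-17-inhibited, 2824 CPM in the TNF-inhibited and 1486 CPM in the untreated library. The 265 barcodes with mural markers, the cells that wrap small vessels, had 10993 CPM of Cxcl1, 2659 CPM of Cxcl2 and 360 CPM of Csf3. These barcodes were pooled over animals and carry no test. In the fibroblast sums, the 5 endothelial markers together gave 1.71 to 3.27 CPM in FAP-sorted, 4.54 to 6.45 CPM in IL-17-inhibited, 6.33 to 7.99 CPM in TNF-inhibited, 6.63 to 8.21 CPM in untreated arthritic and 6.63 to 9.43 CPM in healthy animals. All 5 were above 0 in each of these groups, and their part in the Csf3 differences was not tested.

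Marker genes of the cells that these factors act on also had counts in the fibroblast sums. The 9 neutrophil markers together gave 108 to 139 CPM in FAP-sorted, 24.9 to 29.9 CPM in IL-17-inhibited, 34.5 to 38.9 CPM in TNF-inhibited, 44.5 to 55.4 CPM in untreated arthritic and 15.6 to 17.2 CPM in healthy animals. Csf3r, the G-CSF receptor, was at 0 in the IL-17-inhibited and the healthy animals, Ngp in the IL-17-inhibited, and Ltf in the TNF-inhibited and the healthy animals. The 7 macrophage markers gave 86.5 to 121 CPM in FAP-sorted, 39.7 to 66.0 CPM in IL-17-inhibited, 49.9 to 98.0 CPM in TNF-inhibited, 82.0 to 101 CPM in untreated arthritic and 15.7 to 20.9 CPM in healthy animals. The 3 muscle markers gave 0 to 0.16 CPM in FAP-sorted, 24.2 to 44.0 CPM in IL-17-inhibited, 38.9 to 52.3 CPM in TNF-inhibited, 92.9 to 118 CPM in untreated arthritic and 36.8 to 140 CPM in healthy animals. Adgre1, a macrophage marker, was at 0 in the healthy animals. The 3 leukocyte markers gave 2.52 to 5.94 CPM in FAP-sorted, 3.09 to 3.30 CPM in IL-17-inhibited and 1.23 to 2.36 CPM in TNF-inhibited animals. They gave 1.86 to 2.38 CPM in untreated arthritic and 0.19 to 0.70 CPM in healthy animals, where Ptprc was at 0. The source of all these marker counts, and their part in the levels of the 6 genes, was not tested.

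Receptors of these factors were read in the same sums. Of 7 receptor and decoy genes, Cxcr1, Cxcr2 and Csf3r fell below the count filter. Csf2rb and Csf2rb2, subunits of the receptors for GM-CSF and IL-3, rose in untreated arthritic over healthy fibroblasts (3.25 and 1.65), and Ackr1, a decoy receptor for chemokines, fell (-1.27), 3 of the 4 tested where 28.7% of all genes passed. Of 5 other growth factor genes, Il34, a ligand of the CSF1 receptor, rose (1.30), Kitl, the stem cell factor, fell (-0.75), and Il3 and Il5 were not tested. Under IL-17 inhibition Il34 rose further over untreated arthritic animals (1.20).

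Other genes known to respond to IL-17A were mostly higher in arthritic fibroblasts. Of 11 such genes, 9 rose and none fell in untreated arthritic over healthy fibroblasts, where 14.4% of all genes rose. The median log2 fold change of the 11 was 2.72. This list, like the other gene lists here, was chosen with earlier results of these data known, so its counts carry no test. Saa3, an acute-phase protein, rose by 4.45, Tnfsf11, the osteoclast signal RANKL, by 4.14, Lcn2, an iron-binding protein, by 3.89 and Mmp3 by 3.78. Under IL-17 inhibition 7 of the 11 fell and none rose over untreated arthritic fibroblasts, where 4.65% of all genes fell, among them Lcn2 (-1.70), Saa3 (-1.59), Ptgs2 (-1.25), Mmp3 (-1.07) and Il6 (-0.70). None of the 11 passed by edgeR under TNF inhibition over untreated arthritic fibroblasts, where 5.55% of all genes did. Between the inhibitors, IL-17-inhibited over TNF-inhibited, 5 fell and none rose, where 3.05% of all genes fell.

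The genes that carry or limit the IL-17 and TNF signal were called about as often as other genes between untreated arthritic and healthy fibroblasts, 4 of 14 beside 28.7% of all genes. Of these, the TNF receptor gene Tnfrsf1b (0.46) and the NF-kB brake Tnfaip3 (0.42) rose, and Il17rd (-0.69) and Rela (-0.41) fell. The median over the 14 was 0.13. Of 8 genes for regulators of mRNA decay, N4bp1, which encodes an RNA-cutting protein, rose (0.74), Rc3h1, which encodes the RNA-binding protein Roquin-1, fell (-0.22), and Zfp36 did not pass, with a median of -0.10 over the 8. Under IL-17 inhibition over untreated arthritic animals, Zc3h12a, the nuclease Regnase-1 that cuts such mRNAs, fell by 0.35 on the log2 scale. Nfkbiz, a co-activator of IL-17 target genes, fell by 0.34. These were 1 of the 8 decay regulators and 1 of the 14 signal genes, where 8.45% of all genes passed. In FAP-sorted over untreated arthritic fibroblasts, 6 of the 8 decay regulators fell, led by Zfp36l1 (-0.93) and Zc3h12a (-0.80), as did 8 of the 14 signal genes, and Il17rc rose (0.45). This comparison called 42.9% of all genes, 21.5% lower. The medians were -0.48 and -0.35, against -0.01 over all genes tested.

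Genes of the IL-1 axis were in part raised. Il33 (1.90), Il1rn, the IL-1 receptor antagonist (3.28), and the receptor Il1r1 (0.54) rose in untreated arthritic over healthy fibroblasts, 3 of 6 genes where 14.4% of all genes rose. Of 15 genes that dissociation is known to induce, Dusp1 rose (0.71) and Atf3 (-0.96), Ier2 and Junb fell in the same comparison. Of all genes, 14.4% rose and 14.3% fell there. In FAP-sorted over untreated arthritic fibroblasts Jund rose and Zfp36 (-0.66), Fos (-0.44), Junb and Dusp1 fell. Of all genes, 21.3% rose and 21.5% fell there. In IL-17-inhibited over healthy fibroblasts 3 of the 15 rose and 10 fell, where 17.9% of all genes rose and 17.7% fell. In TNF-inhibited over healthy fibroblasts 4 rose and 5 fell, where 19.6% of all genes rose and 19.3% fell. Their part in the levels of the 6 members was not tested. Of the other CXC chemokine genes Cxcl12, Pf4, Ppbp and Cxcl15, Cxcl12, which binds CXCR4, rose in untreated arthritic over healthy fibroblasts (1.71), and Cxcl15 was not tested.

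Across 78 sums of an animal and a fibroblast class, the member most like Cxcl1 was Cxcl2, with a Spearman rho of 0.82, and among 14348 genes each was the other's nearest. Next for Cxcl1 came Spry2 (0.77), Zc3h12a (0.74), Tnfaip6 (0.73) and Timm8a1 (0.71), and Zc3h12a (0.74) was also next for Cxcl2. Cxcl5 lay closest to Gpm6b (0.81) and Tcim (0.79), Csf3 to Slc16a1 (0.79) and the B-cell chemokine Cxcl13 (0.74), Cxcl3 to Gm12840 (0.73) and the basement membrane collagen Col4a2 (0.71), and Csf2 to Rpl27 (0.71) and Wnt2 (0.66). Cxcl5 and Csf3 had a rho of 0.54 with each other, and the remaining pairs of members lay between 0.14 and 0.49. The sums share animals, libraries and depth, so these are descriptions with no test, and for Csf2 they rest on few UMIs.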

How the data were processed

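Single-cell RNA was counted in 4 droplet libraries of 17 hashtagged mice. The deposited matrices hold raw UMI counts per gene and barcode, with no normalization by the authors. Per the file headers they were made with Cell Ranger 6.0.0 (unsorted libraries) and 5.0.0 (FAP-sorted), and the submitters' processing notes give mm10 and version 6.0.6. Wells were hyper-loaded per the labels' protocols, so droplets with several cells are frequent, and no doublet caller was run here. Classes, hashtag calls and the stress score are the authors' deposited annotation. The sources used here do not say how the score and classes were made.

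Counts were summed per animal, and per animal and class with at least 10 cells and 2 animals a group, and tested with edgeR 4.0.16 (limma 3.58.1, R 4.3.3; TMM, filterByExpr, quasi-likelihood test, Benjamini-Hochberg adjustment over all genes tested, threshold 0.05). The 12 animals of the unsorted libraries were fitted together by group, and the FAP-sorted comparison over 8 animals. Labels do not say whether animals shared a litter or day, so p-values measure the spread between these animals. The tests were checked on simulated counts. Barcodes outside the annotation were called by at least 5 UMIs and 3 genes of a marker list. Alternatives were DESeq2 1.42.0, no count filter, cells of low stress score, other hashtag rules, a library term, the hashtag number as a block, at least 30 cells, and each animal left out. Python 3.11.15 with pandas 2.3.3 and scipy 1.17.1 gave levels, thinning and sequences. The text names the 6 members, gene lists, and for each member the 5 genes of highest Spearman rho of log2(CPM + 1) over sums of at least 20 cells. Members and lists were chosen with earlier results of these data known.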

Additional observations from a re-analysis of the deposited data

Results flagged for a closer look

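The response of 2 members to arthritis differed between fibroblast classes by the interaction test. For Cxcl5, the log2 fold change of untreated arthritic over healthy animals in Il6+ minus that in lining fibroblasts was -2.11, and minus that in Mmp3+ fibroblasts -1.89. For Cxcl1, the value in Il6+ minus that in lining fibroblasts was -0.78. The call of Cxcl1 was lost in 4 and that of Cxcl5 against lining fibroblasts in 2 of the 6 fits without 1 animal, and that of Cxcl5 against Mmp3+ fibroblasts in none.

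Barcodes outside the annotation carried some members above the level in the summed fibroblasts of any animal. Csf3 reached 1965 CPM in barcodes with endothelial markers and 360 CPM in barcodes with mural markers. In the mural barcodes Cxcl1 reached 10993 CPM and Cxcl2 2659 CPM. Single fibroblast classes reached more than the mural barcodes in some animals, with up to 613 CPM of Csf3 and 12244 CPM of Cxcl1 in Il6+ fibroblasts of TNF-inhibited animals. By Dixon's test none of the 6 members had an animal far from the others in the FAP-sorted group, and the groups of 3 animals were not checked.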

How the results depend on the processing

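Library and treatment cannot be told apart in this design, healthy sums are shallow and doubtful in their hashtags, and Csf2 rests on few UMIs. The number of members called moved as follows. For untreated arthritic over healthy it was 4 in place of 2 with hashtags highest by raw count, chosen after seeing the data, and 2 to 3 without 1 animal. For TNF-inhibited over untreated arthritic it was 1 in place of 0 with no count filter and in cells of low stress score. For IL-17-inhibited over untreated arthritic it was 0 in place of 1 by DESeq2, with a library term and without any 1 animal, and 2 with no filter. For IL-17-inhibited over TNF-inhibited it was 2 in place of 1 by DESeq2 and with no filter, 0 with a library term and 1 to 2 without 1 animal. For TNF-inhibited over healthy it was 2 in place of 4 with a library term and 3 to 5 without 1 animal. For IL-17-inhibited over healthy it was 1 in place of 3 in cells of low stress score and 3 to 4 without 1 animal. FAP-sorted calls were 3 to 4, class calls 35 to 44 and class differences 1 to 3 without 1 animal, with the class fits chosen after seeing the data, and class differences were 0 with at least 30 cells.

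Values that changed sign were small or rest on healthy animals. In cells of low stress score they were Cxcl1 and Cxcl2 in untreated arthritic over healthy (-0.035 and -0.033), Cxcl3 (-0.29) and Csf2 (-0.43) in IL-17-inhibited over TNF-inhibited, Cxcl2 (-0.33) in IL-17-inhibited over healthy and Csf3 (-0.046) in FAP-sorted over untreated arthritic animals. With a library term they were Csf2 (1.72) in untreated arthritic over healthy, Cxcl3 (-0.50) and Csf2 (-0.48) in TNF-inhibited and Csf3 (0.92) and Csf2 (-1.54) in IL-17-inhibited over untreated arthritic, and Cxcl5 (-0.70), Csf3 (0.90) and Csf2 (-1.06) in IL-17-inhibited over TNF-inhibited animals. Cxcl1 in IL-17-inhibited over healthy animals was 0.027 with no filter and 0.50 with hashtags by raw count. Without 1 animal, the ranges that crossed 0 were -0.24 to 0.34 (Cxcl2) and -0.89 to 0.57 (Csf2) in untreated arthritic over healthy, -0.058 to 0.66 (Cxcl2) in TNF-inhibited over untreated arthritic, -0.34 to 0.25 (Cxcl2) and -0.21 to 0.21 (Cxcl5) in IL-17-inhibited over untreated arthritic, -0.18 to 0.34 (Cxcl3) and -0.10 to 0.59 (Csf2) in IL-17-inhibited over TNF-inhibited, -0.088 to 0.066 (Cxcl1) and -0.035 to 0.068 (Cxcl2) in IL-17-inhibited over healthy, -0.26 to 0.17 (Cxcl5) in FAP-sorted over untreated arthritic animals, and -0.23 to 1.19 for Cxcl5 in Pi16+ fibroblasts. The causes were not tested.

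Hashtag numbers recur in the groups but did not pair the animals, since correlations of same-numbered deviations were -0.168 to 0.174. With the number as a replicate block, members called were 1 in place of 0 for TNF-inhibited and 3 in place of 1 for IL-17-inhibited over untreated arthritic animals, 1 for IL-17-inhibited over TNF-inhibited and 4 for FAP-sorted over untreated arthritic animals. Hashtags highest by centred log-ratio kept every cell and gave the same values. The fits of at least 30 cells could not be made for Mmp3+ fibroblasts or osteoblasts against healthy animals.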
